A study of Mus musculus with 4 samples.

Results

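Between the promoters of genes, the genome of activated mouse B cells carried many separate patches of histone H3 lysine 4 (H3K4) signal, and the patches that lay outside genes and 5 to 50 kb from a transcription start site (TSS) are described here. They were found by pooling the reads of the knockout and the wild-type library, so the members were chosen by the summed reads of both genotypes. Windows of 200 bp with 9 or more reads were joined over gaps of up to 200 bp into islands, and islands with 20 or more reads were kept. An island was a member when its edge lay over 5 kb and up to 50 kb from the nearest start site of any gene in GENCODE vM1 (build mm9, the assembly NCBIM37) and its midpoint lay outside every protein-coding gene. Of 24957 islands, 3566 met this rule.

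The study measured histone modifications by chromatin immunoprecipitation and sequencing (ChIP-seq) in mouse B cells labelled PA1-KO or PA1-WT. Splenic B cells had been purified by removal of CD43-bearing cells from mice aged 6 to 14 weeks, and were stimulated for 2 days with LPS (25 μg/ml) plus either α-IgD-dextran (2.5 ng/ml) or IL4 (5 ng/ml). One library with an antibody labelled H3K4 was available for each genotype, and these 2 libraries held 5259995 knockout and 5539475 wild-type nuclear reads. Neither label says which methylation state was precipitated, which of the stimuli was used, how PA1 was deleted, or how many mice gave the cells. No file of the other pair of samples, which carry the labels LPS and dextran, was analysed here. Because there was 1 library per genotype, no difference below has a replicate check. Each ratio of knockout to wild type was scaled on promoter reads and carries an exact 95% interval that covers counting error only, island by island, without adjustment for the number of islands.

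Methylation of H3K4 marks the starts of active genes in its trimethylated form and distal regulatory elements, the enhancers, mostly in its monomethylated form. MLL3 and MLL4 are the methyltransferases best known for the enhancer mark, and they work in a complex with PTIP and PA1. PA1 and PTIP also form a smaller unit without the methyltransferases, which acts in immunoglobulin class switching. In B cells, distal elements bound by PU.1, IRF, EBF, octamer, E2A, RUNX and AP-1 factors set the expression of lineage and activation genes.

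The 7 islands below carry most of the account that follows, and 300 bp of reference sequence (NCBIM37, plus strand, 5′ to 3′) around the point of most reads is shown for each. Capitals mark matches to the short motifs described further below, and a sequence without capitals had no match. The first group was higher in the knockout library, near Prdm1, S1pr1, Bcar3 and Plekhb1.
Prdm1, chr10:44432981-44433280: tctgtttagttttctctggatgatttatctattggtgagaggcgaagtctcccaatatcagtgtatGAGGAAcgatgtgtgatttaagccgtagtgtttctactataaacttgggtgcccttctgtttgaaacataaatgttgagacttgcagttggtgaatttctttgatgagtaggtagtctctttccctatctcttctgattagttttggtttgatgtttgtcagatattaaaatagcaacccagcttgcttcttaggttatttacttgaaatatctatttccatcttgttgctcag
S1pr1, chr3:115387891-115388190: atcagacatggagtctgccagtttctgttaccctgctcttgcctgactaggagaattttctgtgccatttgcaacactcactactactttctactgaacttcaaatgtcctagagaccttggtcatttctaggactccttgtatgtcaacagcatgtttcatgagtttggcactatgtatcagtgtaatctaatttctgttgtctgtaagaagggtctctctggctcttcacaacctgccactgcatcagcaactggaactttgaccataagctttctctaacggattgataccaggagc
Bcar3, chr3:122104561-122104860: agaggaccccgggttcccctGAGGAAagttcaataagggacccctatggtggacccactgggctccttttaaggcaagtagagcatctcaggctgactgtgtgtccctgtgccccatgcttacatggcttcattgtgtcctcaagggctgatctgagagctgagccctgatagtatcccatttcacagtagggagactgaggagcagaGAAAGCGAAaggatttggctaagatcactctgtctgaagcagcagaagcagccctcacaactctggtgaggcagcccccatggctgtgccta
Plekhb1, chr7:107823671-107823970: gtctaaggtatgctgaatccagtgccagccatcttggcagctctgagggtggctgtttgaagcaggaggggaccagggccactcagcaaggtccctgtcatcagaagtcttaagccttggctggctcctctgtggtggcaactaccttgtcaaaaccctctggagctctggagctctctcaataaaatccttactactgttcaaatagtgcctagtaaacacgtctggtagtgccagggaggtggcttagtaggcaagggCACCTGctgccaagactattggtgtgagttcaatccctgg
The second group was lower in the knockout library, near Nr4a1 and Olfr693.
Nr4a1, chr15:101086481-101086780: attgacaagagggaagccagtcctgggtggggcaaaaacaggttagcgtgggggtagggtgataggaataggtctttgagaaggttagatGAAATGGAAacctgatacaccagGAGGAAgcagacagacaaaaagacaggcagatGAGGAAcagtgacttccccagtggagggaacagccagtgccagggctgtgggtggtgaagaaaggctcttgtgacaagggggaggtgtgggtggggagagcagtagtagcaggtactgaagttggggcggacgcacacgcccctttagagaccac
Olfr693, chr7:113787811-113788110: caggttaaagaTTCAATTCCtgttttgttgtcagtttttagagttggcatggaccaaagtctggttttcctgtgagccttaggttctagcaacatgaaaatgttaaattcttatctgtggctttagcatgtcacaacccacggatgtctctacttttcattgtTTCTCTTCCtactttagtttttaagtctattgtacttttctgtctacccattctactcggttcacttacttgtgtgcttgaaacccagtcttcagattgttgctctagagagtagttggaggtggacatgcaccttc
The last is from the island with the most reads and the greatest width, near Zfp541, which passed no threshold.
Zfp541, chr7:16634931-16635230: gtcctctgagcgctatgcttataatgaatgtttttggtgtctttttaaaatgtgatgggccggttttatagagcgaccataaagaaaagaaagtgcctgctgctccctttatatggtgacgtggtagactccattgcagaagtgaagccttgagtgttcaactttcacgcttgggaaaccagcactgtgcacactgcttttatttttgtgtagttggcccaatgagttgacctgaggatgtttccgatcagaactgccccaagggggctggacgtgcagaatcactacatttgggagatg

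The members were small and mostly weak. They covered 3095 kb in all, with a median width of 600 bp and a largest width of 10600 bp. A single window of 200 bp made up 216 of them, and 228 were 2 kb or wider. The median member held 65 reads in both libraries combined, against 428 for an island within 1 kb of a TSS, and the largest held 3407. Together they took in 205823 knockout reads (3.91% of the library) and 225927 wild-type reads (4.08%). Their median GC content was 49.2%, against 53.3% for promoter islands. CpG dinucleotides were also sparser in them. Over the 300 bp windows, the ratio of observed to expected CpG had a median of 0.356 in members and 0.536 in promoter islands. At the limits of the rule, the nearest excluded islands lay 4998 bp from a start site (201 knockout and 215 wild-type reads) and 50048 bp from one (48 and 60 reads). Just inside these limits, an island beside Tha1 lay 5.01 kb away and held 14 and 19 reads. Another, with Gm355 as its nearest protein-coding gene, lay 49.8 kb from the start of Gm14010 and held 12 and 9 reads. At the minimum of 20 reads there were 67 members, and 69 candidates with 19 reads fell just under it.

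Signal was summed over all members to compare the genotypes, and the pooled amount was nearly equal. The summed ratio of knockout to wild type was 1.04 with promoter scaling, as it was over all islands and over promoter islands (1.04 each). By share of all nuclear reads, members held slightly less in the knockout library (3.91% against 4.08%). The median log2 ratio of the members, with 0.5 reads added to each count before scaling, was -0.01, and the standard deviation across them was 0.60. The rule for a higher or lower member asked for a ratio of 1.5-fold or more and an interval without 1. By this rule 183 members were higher (5.13%) and 176 were lower (4.94%) in the knockout library. Over all 24957 islands the shares were 3.35% higher and 5.39% lower, so the lower share was near the background and the higher share stood above it. The islands inside genes and over 5 kb from a start site had 6.78% higher and 5.63% lower of 3923, and intergenic islands beyond 50 kb had 6.09% and 4.32% of 1018. Promoter islands differed in direction, with 1.31% higher and 5.14% lower of 13617. At a threshold of 2-fold, 85 members were higher (2.38%) and 98 lower (2.75%), against 1.51% and 2.44% of all islands.

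The balance of the directions depended on how the libraries were scaled. Scaling to total nuclear reads moved the median log2 ratio of all islands by -0.12 and gave 123 higher and 288 lower members (3.45% and 8.08%, against 2.22% and 8.61% of all islands). Scaling to reads outside islands and promoters moved it by -0.30 and gave 66 and 546 (1.85% and 15.3%, against 1.18% and 16.3%). The higher share of the members past the threshold was then 51.0% with promoter scaling, 29.9% with total reads and 10.8% with reads outside islands.

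**Figure D1:**
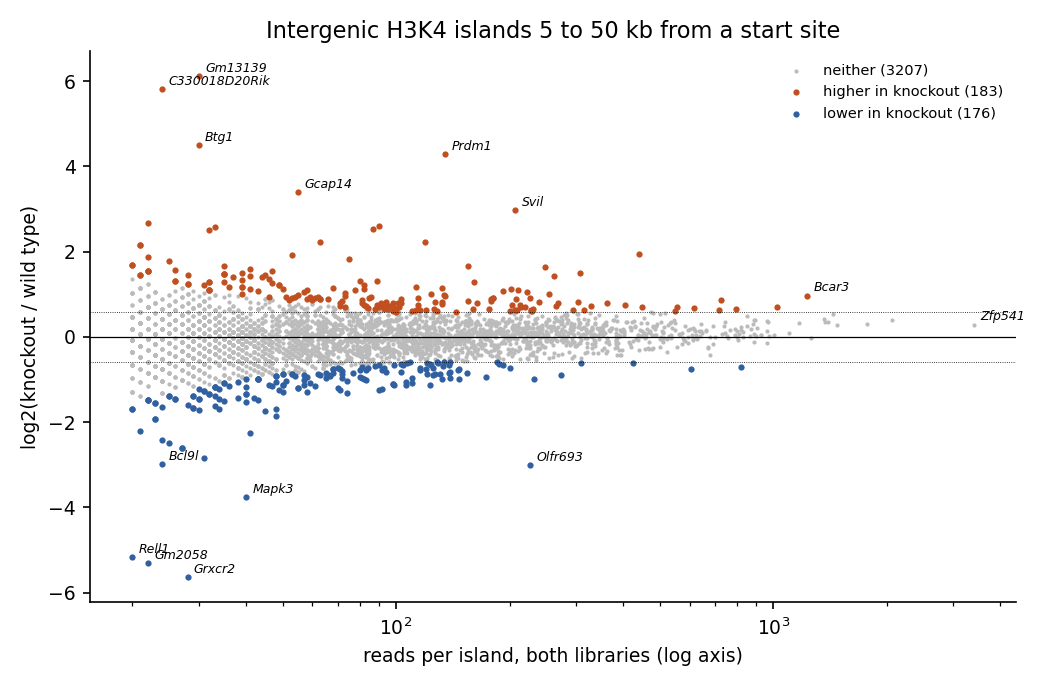
Log2 ratio of knockout to wild type (0.5 reads added) against reads in both libraries (log axis) for the 3566 intergenic islands, 1 point per island, with 183 higher islands in orange, 176 lower in blue and dotted lines at 1.5-fold. Points with few reads spread widest, and the Prdm1 island with 128 and 7 reads stands far above others of its level.

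The direction of the difference followed base composition. Of the 112 members under 40% GC, 19 were higher (17.0%) and 1 was lower. Of the 496 members at 55% GC or more, 3 were higher and 70 were lower (14.1%). The median log2 ratio went from 0.36 to -0.33 between these bins. Promoter islands had the same order, with 25.3% of 146 higher under 40% GC and 11.3% of 5315 lower at 55% or more, so the trend was not particular to the intergenic islands. Its part in the single differences was not tested. With a smooth GC trend removed, 123 members were higher (3.45%) and 156 lower (4.37%), against 2.43% and 3.12% of all islands. With trends in both level and GC removed, the counts were 136 (3.81%) and 114 (3.20%), against 2.64% and 2.54%, and 123 and 100 of these members were also past the threshold without the correction.

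Level was related to direction in another way. Among the 580 members with 200 or more reads, 40 were higher (6.90%) and 8 were lower (1.38%). Among the 1420 members with 20 to 49 reads, 53 were higher (3.73%) and 73 lower (5.14%). Over all islands the shares in these bins were 1.81% and 1.36% at 200 or more reads, and 3.50% and 6.51% at 20 to 49. The other distal classes tilted the same way at 200 or more reads, with 12.5% higher and 2.37% lower inside genes, and 14 higher and 2 lower of 117 islands beyond 50 kb. Promoter islands of 50 to 99 reads had 2.69% higher and 19.5% lower, whereas members of that level had 6.07% and 6.29%. Distance from the start site showed no such pattern, since the lower share ran from 3.84% to 5.82% and the higher share from 4.35% to 5.89% over 5 bins between 5 and 50 kb. Members upstream of their neighbour gene numbered 2295, with 123 higher and 90 lower, and the 1271 downstream had 60 and 86.

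**Figure D2:**
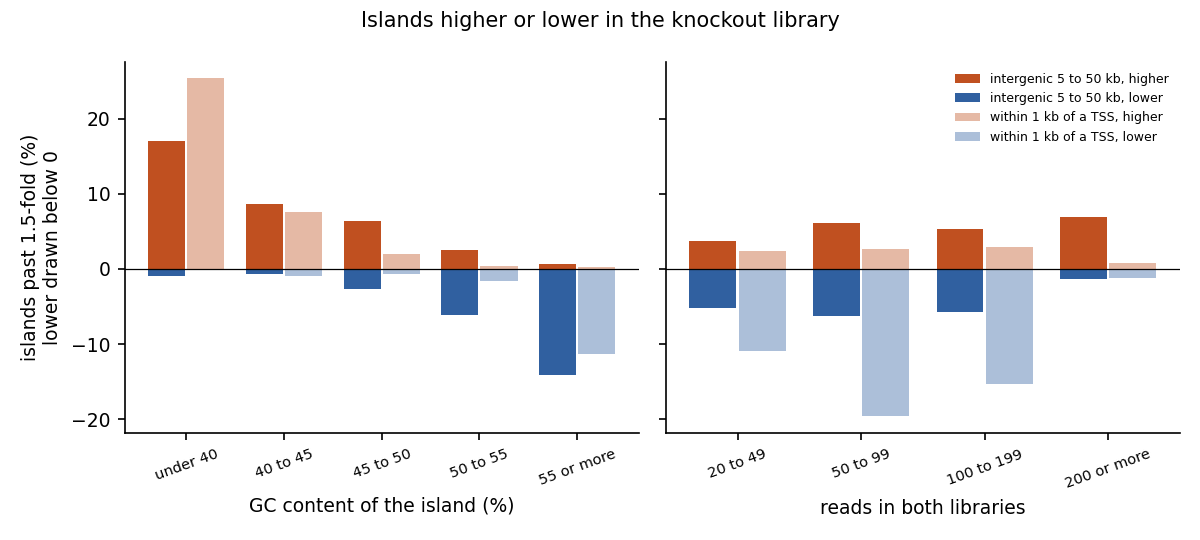
Percent of islands at least 1.5-fold higher (above 0) or lower (below 0) in the knockout library, by GC content (left) and by reads in both libraries (right). Solid bars are the intergenic islands and pale bars are islands within 1 kb of a start site. Lower islands gather at 55% GC or more in both classes, and weak promoter islands are lower more often than intergenic islands of the same level.

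Other features that travelled with the differences were measured. One was how far short reads can be placed. A median of 99.7% of the 25-base words in an uncalled member occurred 1 time in the genome, against 98.1% in the higher and 100% in the lower members. Under 90% of words were unique in 34 higher members (18.6%), 9 lower members (5.11%) and 340 of the rest (10.6%). Without these 383 members, 149 were higher and 167 lower. Another was mismatch to the reference in the reads of 1 library alone. Positions where 1 library alone mismatched the reference lay within 5 Mb of 1185 members, of which 5.82% were higher and 6.41% lower. The other 2381 members had 4.79% higher and 4.20% lower. Chromosome 7, which holds PA1, had 55 such positions for the knockout library and 1 for the wild type. On it 13 of 205 members were higher and 17 lower (8.29%, against 4.73% elsewhere). Lower shares near this size were also found on other chromosomes. The X chromosome had 6 of 69 members lower (8.70%), with 1 such position for the knockout library and 0 for the wild type. Chromosome 6 had 7.88% lower (2 and 47 positions) and chromosome 4 had 7.84% (22 and 18 positions). The part of these features in the differences was not tested.

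Members were assigned to the protein-coding gene whose TSS was nearest, the neighbour gene. There were 2344 neighbour genes, and 1645 of them had 1 member each. A start site of another kind, such as a pseudogene or noncoding RNA, was often nearer, and a protein-coding one was the nearest of any kind for 67.6% of members. For 497 members the neighbour's TSS lay over 50 kb away, so an island called near or beside a gene below can lie farther off than 50 kb. Examples are those of Svil (122 kb), Itga4 (134 kb), AB041803 (91.0 kb), Gm13139 (68.8 kb) and Rell1 (61.7 kb). Others are those of Gcap14 (62.8 kb), Klhl25 (65.0 kb), Cr2 (64.7 kb), Bach2 (67.4 to 72.0 kb) and Gm2058 (53.3 and 66.7 kb). The neighbours tended to be marked genes, since 72.6% of their promoters held 50 or more reads against 54.5% of all 22367 promoters. The B cell markers Ms4a1, Cd79a, Cd79b, Pax5, Ebf1 and Cd22 held 376 to 570 knockout and 385 to 585 wild-type promoter reads. The 6 T and NK cell markers held 0 to 2 in either library, the 6 myeloid markers 0 to 118 and 0 to 171, and the 6 erythroid and stromal markers 1 to 86 and 0 to 91.

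Differences at the islands were seldom matched at the neighbour's promoter. Of the 12186 promoters with 50 or more reads, 0.665% were higher and 4.9% lower. Of 144 higher members whose neighbour promoter held 50 or more reads, that promoter was higher for 2 and lower for 7. Of 135 lower members, the promoter was lower for 15 and higher for 3. Of the 2405 remaining members, the promoter was lower for 112 and higher for 27. A lower promoter was thus more frequent with lower members than with the rest, though still a small part of them, and the cause was not tested. Across 2684 pairs the log2 ratios of island and promoter had a Pearson correlation of 0.106 and a Spearman correlation of 0.090, where all points share the same libraries, scaling and GC trend. The correlation was 0.081 and 0.044 over the 937 pairs whose island held 100 or more reads.

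Of the 10 islands with the most reads, 1 passed the 1.5-fold threshold. The intervals of all the others but Ly6e also lay above 1. Scaled to reads outside islands, the ratios of Zfp541, AB041803 and 0610007P08Rik fell below 1, at 0.992, 0.995 and 0.981. With level and GC trends removed, those of Chd2, AB041803 and 0610007P08Rik did, at 0.893, 0.957 and 0.819, and 0610007P08Rik was at 0.980 with the GC trend alone removed. The Zfp541 island (chr7:16628401-16639000, 18.3 kb upstream of this germ-line zinc finger gene) held 1761 knockout and 1646 wild-type reads, for a ratio of 1.22 (1.14 to 1.31). Its neighbour promoter held 3 and 4 reads, so a broad marked region stood beside a gene without promoter signal. Within 5 Mb, 11 positions mismatched in the knockout library alone. The Chd2 island (chr7:80696401-80705200, upstream of a chromatin remodeller gene) held 1111 and 959 reads, giving a ratio of 1.32 (1.21 to 1.44). The islands beside AB041803 and 0610007P08Rik held 919 and 856 reads and 761 and 719 reads. A130050O07Rik, Hfe2 (the iron regulator hemojuvelin) and Zfp831 had promoters with 0 to 3 reads, and their islands held 806 and 633, 737 and 660, and 720 and 649 reads. The island near the ubiquitin ligase adaptor gene Klhl25 held 737 and 629 reads, and that near the surface protein gene Ly6e held 582 and 677, with 74.8% of its words unique. A130050O07Rik, at a ratio of 1.45 (1.31 to 1.62), came closest to the threshold of those that did not pass. The one past the threshold was beside Bcar3, an adaptor of integrin signalling. Its island (chr3:122102201-122108400, 14.3 kb upstream) held 777 knockout and 454 wild-type reads, for a ratio of 1.95 (1.74 to 2.20), while its promoter held 414 and 426. A second island beside Bcar3 (chr3:122109201-122113200), named after its values were seen, held 602 and 423 reads, giving a ratio of 1.62 (1.43 to 1.84).

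The higher member whose interval lay farthest from 1 was near Prdm1. Prdm1 encodes BLIMP-1, the transcription factor that drives B cells to become plasma cells. The island at chr10:44432401-44434200, 184 kb upstream of the Prdm1 TSS, held 128 knockout and 7 wild-type reads. This was a ratio of 20.9 (9.84 to 53.0). A smaller island beside it (chr10:44430201-44430600) held 19 and 3 reads, giving a ratio of 7.23 (2.13 to 38.1). By contrast, the Prdm1 island 102 kb upstream (chr10:44350001-44351800) held 93 and 98 reads, with a ratio of 1.08 (0.807 to 1.45). The ratio of the strong island was 19.3 times (8.41 to 51.0) that of the equal one. The Prdm1 promoter held 355 and 297 reads. The strong island was poor in GC (36.3%), 88.1% of its 25-base words were unique, and no position mismatching in 1 library alone lay within 5 Mb. A U6 gene start, at 18.0 kb, was nearer to it than any protein-coding start.

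The other members with the most extreme bounds on the higher side follow. The island beside Plekhb1, a pleckstrin homology domain gene (chr7:107822801-107825400), held 340 and 100 reads, giving a ratio of 3.88 (3.10 to 4.90), with 85.1% of its words unique and 5 positions mismatching in the knockout library alone within 5 Mb. The Svil island (122 kb upstream of the gene of the actin-binding protein supervillin) held 181 and 26 reads, giving a ratio of 7.95 (5.25 to 12.5). Gm9034 had 76 and 14 reads, and the phosphatase gene Dusp22 had 73 and 14, with ratios of 6.20 and 5.95. The iron transporter gene Slc11a2 had 96 and 23 reads, and Gcap14 had 50 and 5. Near the antiproliferative gene Btg1 the counts were 29 and 1, a ratio of 33.1 whose interval ran from 5.49 to 1352. The wild-type library had 0 reads at the islands near Gm13139 (30 knockout reads) and C330018D20Rik (24). Both islands met the minimum of 20 reads through the knockout reads alone, so their folds are a description only. Set against a floor of 3 reads per library, the observed counts were at least 11.4-fold and at least 9.13-fold higher. The exact intervals, which also hold the counting error of the knockout reads, began lower, at 8.72 and 6.87. At Gm13139 only 46.0% of the words were unique, and 12 positions mismatching in the wild-type library alone lay within 5 Mb. Such positions also lay within 5 Mb of Btg1 (7), Svil (2), Gcap14 (1), Slc11a2 (1) and C330018D20Rik (1). In the knockout library alone there was 1 near Svil and 1 near Gcap14. Gm9034 and Dusp22 had 0 for either library. Of these 10 members with the most extreme interval bounds, 7 had a neighbour promoter with 50 or more reads. So did 144 of all 183 higher members and 2684 of all 3566 members.

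Members lower in the knockout library were narrower and weaker than the higher ones, with medians of 600 bp and 58 reads against 800 bp and 87 reads. Over all members the medians were 600 bp and 65 reads, so the lower members had the usual width. A neighbour promoter with 50 or more reads was found for 135 of all 176 lower members and for 2684 of all 3566 members. Of the 10 lower members with the most extreme bounds, it was found for 4, and 9 were 600 bp wide or less. The strongest was near the olfactory receptor gene Olfr693 (chr7:113787001-113788600), with 22 knockout and 205 wild-type reads, for a ratio of 0.122 (0.0751 to 0.191). Its 25-base words were 77.3% unique, its GC content was 40.6%, and 2 positions mismatching in the knockout library alone lay within 5 Mb. Near Mapk3, which encodes the kinase ERK1, the counts were 2 and 38, a ratio of 0.0601 (0.00702 to 0.232), and 7 such positions lay within 5 Mb. Bcl9l, a Wnt coactivator gene, had 2 and 22 reads, Bnc1 6 and 35, and Cst11 3 and 24. The Bcl9l promoter was also lower past the threshold, with 19 and 51 reads and a ratio of 0.425 (0.237 to 0.733). Islands near Gm2058 held 3 and 28 and 0 and 22 reads, and those near Grxcr2 and Rell1 held 0 and 28 and 0 and 20. Within 5 Mb, 4 positions mismatched in the knockout library alone at Bnc1 and 2 at each Gm2058 island. In the wild-type library alone there were 7 at Bcl9l, 2 at Cst11 and 4 at Grxcr2. Rell1 had 0 for either library. The islands with 0 knockout reads met the minimum of 20 reads through the wild-type reads alone, so their folds are a description only. Against the floor of 3 reads, the islands at Gm2058, Grxcr2 and Rell1 with 0 reads were at least 6.43-fold, 8.18-fold and 5.84-fold lower by their observed counts. The exact intervals of these ratios, which also hold the error of the wild-type reads, reached up to 0.208, 0.161 and 0.231.

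**Figure D3:**
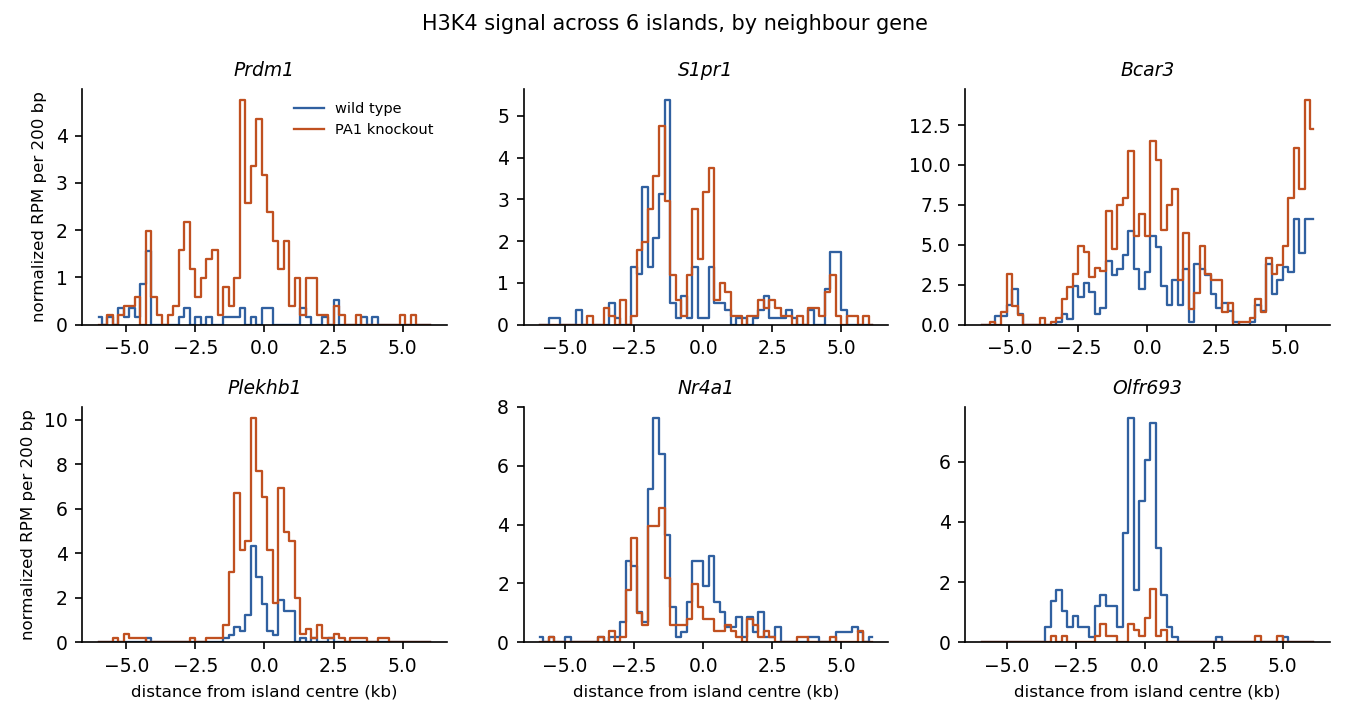
Normalized RPM (library-scaled reads) in 200 bp windows from 6 kb before to 6 kb after the centre of 6 islands, for the knockout library (orange) and the wild-type library (blue), with each panel on its own scale. The knockout line reaches 4.75 in the Prdm1 island, where the wild-type line stays near 0. At Olfr693 the wild-type line reaches 7.46 and the knockout line 1.78, and the S1pr1 panel shows an equal peak beside the one that differs.

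Of the genes for B lineage transcription factors, 11 of 24 were neighbours of 26 members, and 2 of these were higher and 1 lower. The share past the threshold, 11.5%, was near that of all members (10.1%) and all islands (8.75%). The median log2 ratio of the 26 was 0.07, against 0.00 for all islands. Near Ets1, a factor that restrains plasma cell formation, an island (chr9:32416001-32417000) held 55 knockout and 27 wild-type reads, for a ratio of 2.32 (1.44 to 3.83). Some calls below were lost under another scaling or correction because the interval then reached 1, even where the ratio stayed beyond 1.5-fold. Near Ikzf1, which encodes Ikaros, the counts were 38 and 20, a ratio of 2.17 (1.23 to 3.93) that scaling to reads outside islands took to 1.76, where it was no longer past the threshold. Near Bach2, the repressor that holds off plasma cell differentiation, a small island (chr4:32254201-32254600) had 6 and 23 reads, giving a ratio of 0.298 (0.0992 to 0.752). It lay 400 bp from an island with 160 and 174 reads. Another Bach2 island with 121 and 132 reads was also near equal. The Pou2af1 island, near the octamer coactivator gene, held 91 and 144 reads, with a ratio of 0.721 (0.549 to 0.944). It passed the 1.5-fold threshold when scaled to total reads, at 0.666, or to reads outside islands, at 0.586.

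Plasma cell genes had 12 members near 5 of 13 genes, 3 of them higher and 0 lower, against 5.13% and 4.94% of all members and 3.35% and 5.39% of all islands. With 12 members, and with 2 of the 3 higher ones beside each other at Prdm1, the share of 25% rests on few islands. Besides the Prdm1 pair, the third was near Ly6c2, with 63 and 47 reads, with a ratio of 1.53 (1.03 to 2.28), where 41.4% of the words were unique. It was not past the threshold with total reads (1.41), with reads outside islands (1.24) or with GC trend removed (1.35). Near Xbp1, the secretory stress factor gene, an island held 164 and 167 reads. Over the 12 members the median log2 ratio came to 0.18.

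In the activation and NF-kB list, 38 members lay near 17 of 34 genes, with 4 higher, 2 lower and a median log2 ratio of -0.07. The share past the threshold was 15.8%, against 10.1% of all members and 8.75% of all islands. Of the lower ones, that near Nr4a1 is described. Near Nr4a1, an immediate early gene of antigen receptor signalling, the island at chr15:101086201-101087400 held 30 knockout and 76 wild-type reads, for a ratio of 0.451 (0.285 to 0.696). Near Myc, an island 191 kb downstream (chr15:62010001-62010800) held 34 and 13 reads, giving a ratio of 2.98 (1.54 to 6.16). The next island, 192 kb downstream, held 134 and 97, a ratio of 1.58 (1.21 to 2.07) that total reads took to 1.45, reads outside islands to 1.28 and the GC trend to 1.4990. Near Fos the counts were 16 and 6 at 1 island, a ratio of 3.04 (1.13 to 9.50), and 261 and 321 at another. The first of these was not past the threshold when scaled to reads outside islands (2.47). Near Nfkbiz, which encodes an atypical IkB protein, the counts were 127 and 86, a ratio of 1.69 (1.27 to 2.24) that the same scaling took to 1.37. The Irf1 island, with 149 and 213 reads, had a ratio of 0.798 and passed the threshold only under that scaling, at 0.648.

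Genes for migration and retention had 33 members near 11 of 23 genes, of which 3 were higher and 1 was lower, with a median log2 ratio of -0.02. The share past the threshold, 12.1%, was near the 10.1% of all members. S1pr1 encodes the receptor that draws lymphocytes out of the spleen and lymph nodes. Its island at chr3:115387401-115388200 held 57 knockout and 18 wild-type reads, for a ratio of 3.61 (2.10 to 6.53). An island 600 bp away (chr3:115385201-115386800) held 97 and 106, a ratio of 1.04 (0.785 to 1.39), and the ratio of the first was 3.46 times (1.85 to 6.68) that of the second. Near Cxcr4, the receptor for CXCL12, the counts were 17 and 4, a ratio of 4.85 (1.58 to 19.8). Near the integrin gene Itga4 they were 29 and 17, a ratio of 1.95 (1.03 to 3.78) that was not past the threshold at 1.80 with total reads, at 1.58 with reads outside islands, or at 1.48 with either GC correction. Near the tetraspanin gene Cd9 they were 13 and 30, a ratio of 0.495 (0.237 to 0.977) that was not past it with the level trend, at 0.517, the GC trend, at 0.696, or both removed, at 0.707. The Ccr7 island held 158 and 126 reads and was not past the threshold.

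Cytokine signalling genes had 19 members near 11 of 20 genes, with 1 higher and 3 lower and a median log2 ratio of -0.26. This was 21.1% of a small list, against 10.1% of all members and 8.75% of all islands. Socs3 encodes a feedback inhibitor of cytokine receptors, and its 3 named islands did not move together. They held 25 and 55 reads (ratio 0.519, 0.310 to 0.847), 88 and 68 (1.48, 1.06 to 2.06), and 23 and 45 (0.583, 0.337 to 0.985). The last was not past the threshold with the level trend removed, at 0.5997, the GC trend removed, at 0.792, or both, at 0.798. The Socs3 promoter held 197 and 315 reads. Near the receptor gene Il21r the counts were 5 and 18, a ratio of 0.317 (0.0920 to 0.886) that was not past the threshold with both trends removed, at 0.370, and the region had 7 positions mismatching in the knockout library alone within 5 Mb. Near the kinase gene Pim1 they were 45 and 23, a ratio of 2.23 (1.32 to 3.87). Islands near Jak1 (229 and 273 reads) and Il4ra (60 and 80) were not past the threshold.

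**Figure D4:**
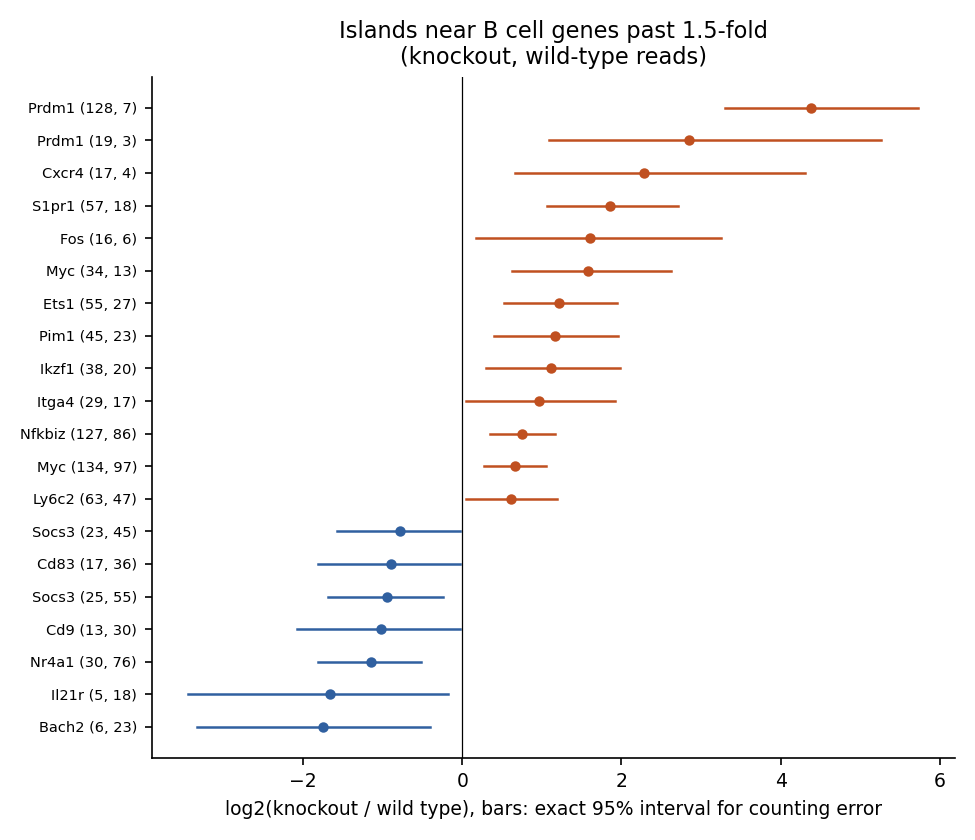
Log2 ratio of knockout to wild type, with exact 95% intervals for counting error, for islands near genes of 6 B cell lists that were at least 1.5-fold higher (orange) or lower (blue), with knockout and wild-type reads in brackets after each neighbour gene. The Prdm1 island with 128 and 7 reads has the largest ratio of those drawn and the Bach2 island with 6 and 23 reads the smallest. Not every island of these lists past the threshold is drawn, and several of the other intervals end close to 0.

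The remaining lists were small or held few members past the threshold. B cell receptor and surface molecules had 28 members near 12 of 27 genes, with 0 higher and 1 lower. The islands near Cr2 (complement receptor, 194 and 200 reads) and Sykb (the kinase Syk, 129 and 121) were near equal. Class switch machinery had 4 members, all near 1 gene, Parp1, with counts such as 48 and 72, and 0 of them passed. None of the 10 genes of the complex of PA1, PTIP and MLL3/4 was the neighbour of a member. T and NK cell markers had 9 members with 0 past the threshold, such as the Klrb1c islands with 130 and 137, 157 and 171, and 147 and 162 reads, where 53.8% to 71.5% of the words were unique. Myeloid markers had 5 members and 1 higher, near the integrin gene Itgam, with 113 and 68 reads, with a ratio of 1.90 (1.39 to 2.60). Its promoter held 35 and 27 reads, and 3 positions mismatching in the knockout library alone lay within 5 Mb. The Fcgr3 islands (212 and 208, and 27 and 40 reads) and the Epcam islands (24 and 31, and 21 and 22) were not past the threshold. Silent developmental genes had 4 members, 2 of them lower. The one near the heart factor gene Nkx2-5 held 43 and 96 reads, a ratio of 0.511 (0.348 to 0.740), at a GC content of 59.4%. The Neurog1 island held 17 and 30. For 14 members the nearest start was annotated as an immunoglobulin gene, a type that in this annotation also takes in Trac, a T cell receptor gene, and Gm4242 on chromosome 19. The Igkv7-33 island was higher (28 and 5 reads, ratio 6.39, 2.44 to 21.2), the Ighv12-3 island was lower (40 and 85, ratio 0.537, 0.359 to 0.791), and the other 12 were not past the threshold.

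The genes with the most members showed how islands assigned to 1 neighbour gene vary. These islands could lie far apart, reaching 98.2 kb from the start of Zfp217, 115 kb for Cd83, 77.0 kb for Chd2 and 272 kb for Bcor. Zfp217, a transcriptional repressor gene, had 11 members with 20 to 511 reads, and 0 of them passed. Their ratios ran from 0.666 to 2.00. Cd83, a surface molecule of activated B cells, also had 11 members, of which 1 was lower. It held 17 and 36 reads, giving a ratio of 0.539 (0.284 to 0.985) that was not past the threshold with the level trend removed, at 0.559. The strongest Cd83 island held 168 and 186 reads. Zfp238, another repressor gene, had 9 members and 1 lower, with 7 and 26 reads (ratio 0.307, 0.113 to 0.727). Its promoter held 465 and 335 reads. Psd2, an exchange factor gene without promoter signal (1 and 5 reads), had 8 members and 1 lower, with 16 and 34 reads (0.537). That island was not past the threshold with the level trend, the GC trend or both removed. Bcor, which encodes the BCL6 corepressor, had 8 members and 1 higher, which lay 251 kb downstream. It held 60 and 42 reads, a ratio of 1.63 (1.08 to 2.48) that scaling to reads outside islands took to 1.32. It was not past the threshold under total reads either. The Bcor promoter was past the threshold in the other direction, with 53 and 93 reads and a ratio of 0.650 (0.455 to 0.921). Chd2 had 7 members and none past the threshold.

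Neighbouring members sometimes shared a direction. At least 2 members were higher beside each of 10 genes and lower beside each of 11, and 8 genes had both directions. Of the 2344 neighbour genes, 1645 had 1 member and could not be counted here. No like count was made over all islands, and whether these counts pass those given by the shares of single members was not tested. The examples that follow were chosen after their values were seen. Beside Med13, a Mediator kinase module gene, the islands held 61 and 28 and 110 and 51 reads, with ratios of 2.49 (1.57 to 4.04) and 2.46 (1.75 to 3.50). Beside Mef2a, a transcription factor gene, they held 51 and 12 and 121 and 82 reads, with ratios of 4.85 (2.55 to 9.99) and 1.68 (1.26 to 2.26). Etv3, an ETS family repressor gene, had 219 and 144 reads at 1 higher island and 33 and 16 at another. Another Etv3 island was lower, with 9 and 24 reads. Beside Ddit4, a stress-induced inhibitor of mTOR, the counts were 49 and 97 and 15 and 36, with ratios of 0.577 (0.400 to 0.821) and 0.476 (0.242 to 0.891). Beside Bcl11a, a B lineage factor gene, they were 11 and 27 and 8 and 24.

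In sequence at the point of most reads, members were closer to the other distal islands than to promoter islands for most motifs. Motifs were searched on both strands in 300 bp windows, and a match is a description of the letters and not a bound site. The purine-rich ETS core GAGGAA, read by PU.1, matched in 35.7% of members, 29.3% of promoter islands, 35.9% of islands inside genes and 38.4% of islands beyond 50 kb. The ETS-IRF composite GGAANNGAA matched in 12.3% of members and 8.47% of promoter islands, and the interferon response core GAAANNGAA in 15.6% and 8.56%. The octamer ATGCAAAT matched in 2.33% and 0.969%, the AP-1 site TGANTCA in 8.89% and 5.66%, and the RUNX site TGTGGTT in 8.24% and 4.70%. The E box CAGCTG matched in 19.7% and 15.9%. The EBF site TCCCNNGGG, at 6.48% and 7.49%, and the E box CAGGTG, at 21.1% and 24.2%, were more frequent at promoter islands. The NF-kB motif GGGACTTT was near equal, at 1.37% and 1.26%. The composite, the ETS core and the interferon core can overlap one another, and promoter windows were richer in GC (a median of 54% against 50%).

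Among members, motif shares were compared by direction, where GC content also differed (medians of 46.0% in higher and 53.5% in lower members). The interferon response core matched in 33 of 183 higher members (18.0%), 16 of 176 lower members (9.09%) and 15.8% of the rest. RUNX sites matched in 17 higher members (9.29%), 8 lower members (4.55%) and 8.39% of the rest. With windows of 1000 bp these RUNX shares were close, at 26.8%, 23.3% and 25.1%. Those of the interferon core were then 38.8%, 24.4% and 39.1%. EBF sites matched in 5 higher members (2.73%), 14 lower members (7.95%) and 6.61% of the rest, and in 16.4%, 25.6% and 18.1% with windows of 1000 bp. The ETS core was close in all, at 38.8%, 38.1% and 35.4%. Shares of the other motifs by direction are not given here. In the printed windows, the Prdm1 and Bcar3 sequences each hold GAGGAA, the Nr4a1 sequence holds it at 2 places, the Olfr693 sequence holds the ETS-IRF composite at 2 places, and those of S1pr1 and Zfp541 hold none of the 10 motifs.

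**Figure D5:**
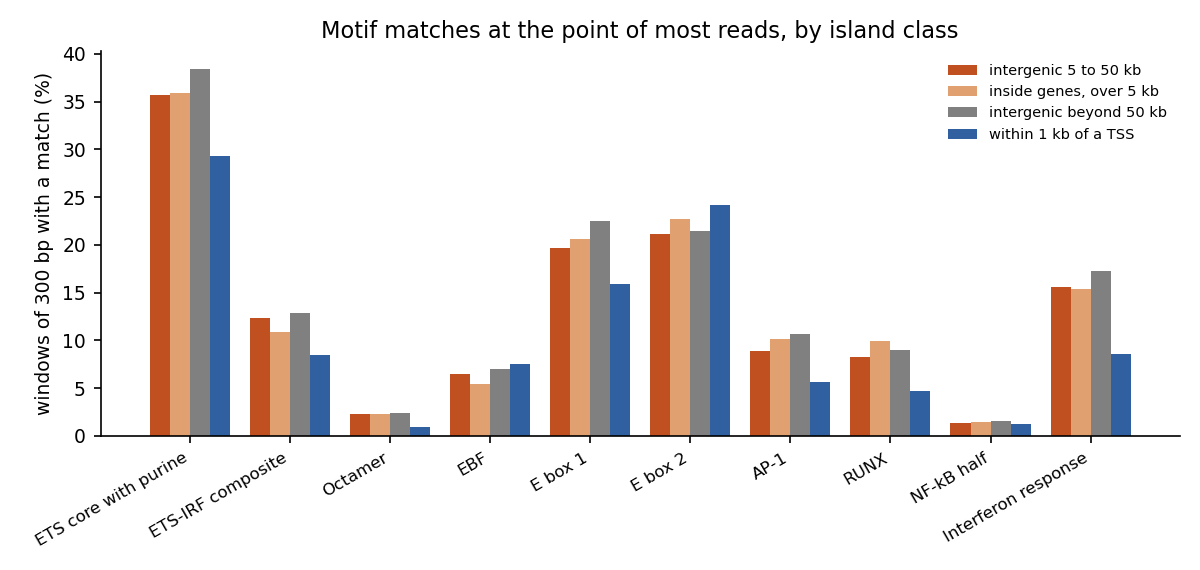
Percent of 300 bp windows at the point of most reads with at least 1 match to each of 10 motifs, for 4 classes of islands. E box 1 is the form with the letters GC at its centre and E box 2 the form with GG. The 3 distal classes lie close together, and promoter islands are lower for the octamer, AP-1, RUNX and interferon response motifs.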

How the data were processed

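Each line of the deposited files is 1 mapped read of 25 bases, given by its position, strand and match string. The files hold no normalized value, and the score column that the authors deposited is 0 throughout. SICER and mm9 are named in the submitters' processing notes, and no aligner is named there or in the labels. No position and strand occurred more than 1 time in a file. Read starts were shifted by 75 bp, and islands were called on the pooled libraries. Scaling used the trimmed mean of M values (trims of 30% and 5%) over 12186 promoters, each 1 kb either side of a TSS with 50 or more reads, and gave a factor ratio of 0.923. Intervals are exact conditional binomial (Clopper-Pearson, 95%). A position and strand counts 1 time at most, so PCR copies and separate molecules at the same place could not be told apart. Intervals and floors cover counting error only.

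Islands were named by rule: the 10 with the most reads, the 10 higher and 10 lower with the most extreme interval bounds, the 5 widest, all islands of the 6 genes with the most members, up to 3 islands with the most reads per gene list plus those past the threshold, and those nearest the limits. Of the 5 widest, the one not described elsewhere was near Btg2 (440 and 491 reads). Some items that this rule or the marker list names are not reported here. The 12 lists, the motifs and the members were chosen with earlier results of these data known. Positions counted as mismatching in 1 library alone had 3 or more reads of which 80% or more mismatched. The computation was tested on simulated data. Python 3.11.15, numpy 2.4.6, scipy 1.17.1 and pandas 2.3.3 were used. Alternatives covered the island definition, distance rule, scaling, trends, threshold, depth and left-out islands.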

Additional observations from a re-analysis of the deposited data

How the results depend on the processing

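Changing the window minimum to 12 reads, the gap to 600 bp, the shift to none, the distance to the island's midpoint, or the start sites to protein-coding genes, thinning the wild type to the knockout's reads, and leaving out chromosome 7 left the counts of members, of higher and of lower members within 1.5 times of those reported. So did, among alternatives chosen after seeing the data, leaving out members with over 80% of reads on 1 strand or with under 90% of words unique. An island minimum of 50 reads left 2146 members, with 103 lower and a median log2 ratio of 0.025. Apart from the T and NK, myeloid, erythroid and stromal, and silent developmental lists, there were 8 lists of genes. These held 13 higher and 8 lower members with the reported settings, and no share over the 8 together was computed. Total reads gave 288 lower members (8.08%, against 8.61% of all islands), a median of -0.13 and 17 lower members in these 8 lists. Reads outside islands gave 66 higher (1.85%) and 546 lower (15.3%), against 1.18% and 16.3% of all islands. The median was then -0.31, and the 8 lists held 7 higher and 30 lower. Removing the level trend left 5 lower members in the 8 lists, and removing both trends left 114 lower members in all. A 2-fold threshold gave 85 higher and 98 lower. Leaving out members within 5 Mb of a position mismatching in 1 library alone, also chosen after seeing the data, left 114 higher and 100 lower. With windows of 1000 bp the motif shares of members were 71.3% for the ETS core, 34.1% for the ETS-IRF composite, 8.83% for the octamer, 18.4% for EBF, 46.0% for CAGCTG, 54.2% for CAGGTG, 27.3% for AP-1, 25.1% for RUNX, 6.11% for NF-kB and 38.4% for the interferon core, since wider windows hold more matches. The cause of the other changes was not tested. No paired analysis was possible because each genotype had 1 library. At 20 to 49 reads an island needed a ratio beyond 1.5-fold for its interval to leave out 1, so smaller differences were not detectable at this depth.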
